A study of Mus musculus with 18 samples.

Results

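Snai1, Snai2, Twist1, Twist2, Zeb1, Zeb2, Prrx1, Cdh2, Cdh11 and Vim were followed over all 6 groups of an RNA-seq study of oncogenic RAS and the ribosomal S6 kinases. These 10 genes were set by name, out of 55401 identifiers in the count table, and they encode transcription factors, cadherins and the filament protein of mesenchymal cells. The cells were mouse embryonic fibroblasts (MEFs), primary cells grown from minced mid-gestation embryos without head and viscera. Poly(A) RNA was sequenced from 18 cultures, 3 in each group. The S6K1 series held S6K1 wild-type (WT) cells that carried an empty retroviral vector (EV), S6K1 WT cells with a retrovirus for constitutively active HRAS (RAS), and knockout (KO) cells of S6K1 that had received RAS too. For the S6K1/S6K2 series there were the same EV and RAS groups of WT cells, and S6K1/S6K2 double-knockout (DKO) cells with RAS. KO and DKO cells carry germline knockout alleles of Rps6kb1, or of Rps6kb1 and Rps6kb2, on an inbred background. Per the methods, KO embryos had WT littermates as controls, whereas DKO embryos came from a cross in which both parents lacked S6K2 and their WT controls came from other mothers. Neither knockout was analysed here with EV. The methods list a puromycin vector for EV and a neomycin vector for RAS but describe puromycin selection of both, and any difference of vector cannot be told apart from RAS.

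Mesenchymal cells lack the lateral junctions of epithelia and hold their shape with vimentin filaments. SNAI, TWIST and ZEB proteins bind short E-box sequences, and the SNAI and ZEB proteins repress epithelial genes such as those for E-cadherin, claudins and keratins. When these factors are switched on in an epithelium the cells turn mesenchymal, a process called epithelial-mesenchymal transition (EMT). Fibroblasts are mesenchymal from the start, and in the embryo Twist1, Twist2, Prrx1 and the slug gene Snai2 mark limb, craniofacial and dermal mesenchyme. N-cadherin (Cdh2) and cadherin 11 (Cdh11) link mesenchymal cells to each other through catenins.

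The libraries held 8319445 to 14402442 counts. Levels are counts-per-million (CPM), scaled by TMM within a series, and p values are edgeR's two-sided quasi-likelihood tests, adjusted by Benjamini-Hochberg over all genes tested in the series. The threshold was an adjusted p of 0.05. Nothing in the labels gives the source of each culture, but the methods describe MEFs from at least 3 mothers. All 12 fibroblast markers listed for the check, among them Col1a1, Pdgfra and Thy1, were detected in every group. Rps6kb1 had 69.0 ± 6.74 CPM (SD, n = 3) in WT RAS of the S6K1 series against 30.6 ± 6.75 CPM in KO RAS, and 80.6 ± 4.45 and 37.5 ± 2.7 CPM in WT RAS and DKO RAS of the other, where the test passed in edgeR (adjusted p 0.00908). Within the S6K1 series the adjusted p was 0.234 in edgeR and 0.000101 with the replicate number as a block. Rps6kb2 went from 25.8 ± 2.68 to 2.84 ± 0.186 CPM in DKO RAS (adjusted p 7.44e-05 in edgeR). Hras, onto which transgene reads may also map, went from 61.8 ± 10.9 CPM in WT EV to 117.5 ± 2.34 CPM in WT RAS of the S6K1 series and from 58.9 ± 7.56 to 99.0 ± 6.76 CPM in the other. All of these levels moved with their labels. Macrophage markers were present in all groups (16 of 16 detected), with a summed level of 690 to 3430 CPM in WT EV, 771 to 3960 CPM in WT RAS and 258 to 912 CPM in KO RAS of the S6K1 series. The sums were 165 to 1519, 183 to 1078 and 75.6 to 251 CPM in WT EV, WT RAS and DKO RAS of the S6K1/S6K2 series.

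Promoters are shown for Snai1, Twist1 and Twist2. They were taken since the mean of WT RAS lay below that of WT EV for Snai1 and Twist1 and above it for Twist2 in both series. By the same means Prrx1 also lay lower and Vim higher in both series, and their windows are not printed. Each is the stretch of 250 bases before the RefSeq gene start in GRCm38.p6, 5′ to 3′ on the strand of the gene, with E-boxes (CANNTG) and GC boxes (GGGCGG) in capitals, both searched on both strands.
Snai1, chr2:167537945-167538194, plus strand: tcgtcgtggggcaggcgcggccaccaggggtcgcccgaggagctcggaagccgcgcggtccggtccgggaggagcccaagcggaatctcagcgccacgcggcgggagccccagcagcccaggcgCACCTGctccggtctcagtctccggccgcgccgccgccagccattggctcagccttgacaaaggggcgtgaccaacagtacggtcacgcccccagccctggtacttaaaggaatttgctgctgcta
Twist1, chr12:33957421-33957670, plus strand: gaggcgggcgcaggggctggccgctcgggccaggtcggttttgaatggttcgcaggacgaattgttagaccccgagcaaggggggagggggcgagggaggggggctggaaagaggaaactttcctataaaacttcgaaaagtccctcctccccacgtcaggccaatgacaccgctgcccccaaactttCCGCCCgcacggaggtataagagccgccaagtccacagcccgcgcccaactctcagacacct
Twist2, chr1:91801211-91801460, plus strand: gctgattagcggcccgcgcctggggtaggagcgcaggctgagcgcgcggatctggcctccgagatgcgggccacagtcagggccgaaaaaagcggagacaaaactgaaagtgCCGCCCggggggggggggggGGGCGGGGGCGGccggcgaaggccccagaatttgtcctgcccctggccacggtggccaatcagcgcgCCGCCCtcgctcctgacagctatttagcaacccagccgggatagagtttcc

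Snai1 had 1 E-box in this window, CACCTG, the form that SNAI and ZEB proteins bind (CAGGTG on the other strand), starting 126 bases before the gene. Twist1 and Twist2 had none in theirs. Of all 32851 promoter windows of this length, 66.2% held a CANNTG and 17.2% held a CAGGTG, which is one of the forms of CANNTG. Twist2 had 4 GC boxes and Twist1 had 1, where 32.7% of all windows held at least 1. None of the 3 windows held an AP-1 site (TGANTCA), found in 6.75% of windows. Such windows were read for 6 of the 10 genes, Zeb2, Prrx1 and Vim being the other ones, and those of Snai2, Zeb1, Cdh2 and Cdh11 were not analysed here. The windows of Prrx1 and Vim held no E-box and no GC box. Those of Zeb2 held no E-box, and some of them held a GC box. The 3 printed windows thus do not set lowered genes apart from raised ones. These matches describe letters and were not tied to any binding measurement.

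All 10 genes were tested in every comparison, since each had at least 218 counts in every library. Levels between genes were compared per kilobase of merged exons. Vim was the highest in every library, at 1452 to 3111 CPM per kb over the 18 libraries, and Cdh11 ranged from 77.9 to 396 CPM per kb. Prrx1 had 37.0 to 89.8 CPM per kb and Twist1 26.7 to 109.8. Snai2, at 17.7 to 71.4 CPM per kb, lay above Snai1 (12.5 to 42.7) in the mean of every group. Cdh2 held 9.53 to 43.8 CPM per kb, less than Cdh11 in every library. Zeb1 had 11.1 to 20.5 CPM per kb and Zeb2, the lowest, 2.63 to 7.26. Twist2 had the widest range of the factors, from 20.6 to 200.2 CPM per kb. No stretch of 50 bases, the read length, was shared exactly between the transcripts of Snai1 and Snai2, Twist1 and Twist2, Zeb1 and Zeb2, Cdh2 and Cdh11, or Prrx1 and its paralog Prrx2.

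**Figure D1:**
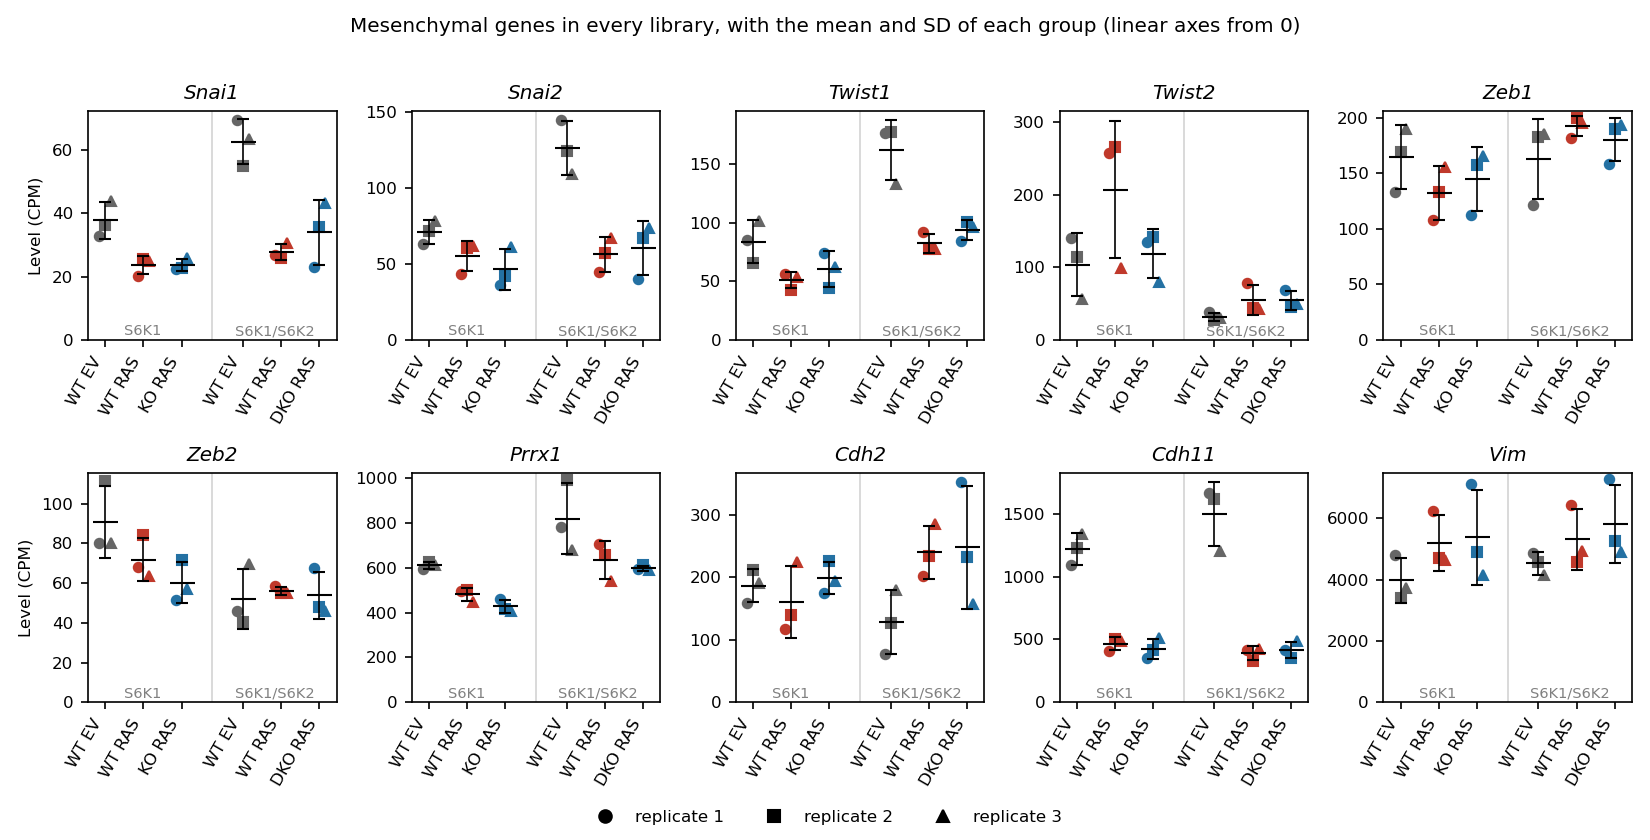
Level of each gene (CPM, linear axes from 0) in the 18 libraries, by group and replicate number, with the mean and SD of the 3 libraries of a group. Cdh11 lies above 1000 CPM in every EV library and below 510 CPM in every RAS library, while the levels of WT RAS overlap those of KO RAS or DKO RAS for all 10 genes. The share of all genes that overlap in this way is not given here.

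To ask what RAS changed, RAS and EV libraries of WT cells were compared. Cdh11 fell in both series, and so did Snai1. Snai2 and Twist1 fell, and Twist2 rose, past the threshold in the S6K1/S6K2 series. In bulk samples such as these, fewer cells of a type cannot be told apart from less RNA per cell. In the S6K1 series 2 of 10 genes passed in edgeR, both lower with RAS, where 13.2% of all 14036 genes tested passed and 6.09% passed as lower. In the other series 5 of 10 passed, 4 lower and 1 higher, where 26.3% of 13881 genes passed, 12.7% lower and 13.5% higher. The median log2 fold change of the 10 was −0.34 in the S6K1 series and −0.13 in the other, against 0.0018 and −0.02 over all genes tested.

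EV and RAS libraries of a series carry the same replicate numbers, and libraries of the same number deviated together from their group means (correlations over genes of 0.444 to 0.684 in the S6K1 series and 0.293 to 0.366 in the other), so each number is called a line here. With the replicate number as a block, 9 of 10 genes passed in the S6K1 series, where 36.2% of all genes passed. Of these, 7 were lower (18.1% of all genes) and 2 were higher (18.1%). Cdh2 alone did not pass. The block called 5 genes in the S6K1/S6K2 series, as many as without it, where 28.7% of all genes passed. By DESeq2, 4 genes passed in the S6K1 series, where 14.0% of all genes passed, with Twist1 and Prrx1 added to Cdh11 and Snai1. Line-by-line values are given with the genes.

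**Figure D2:**
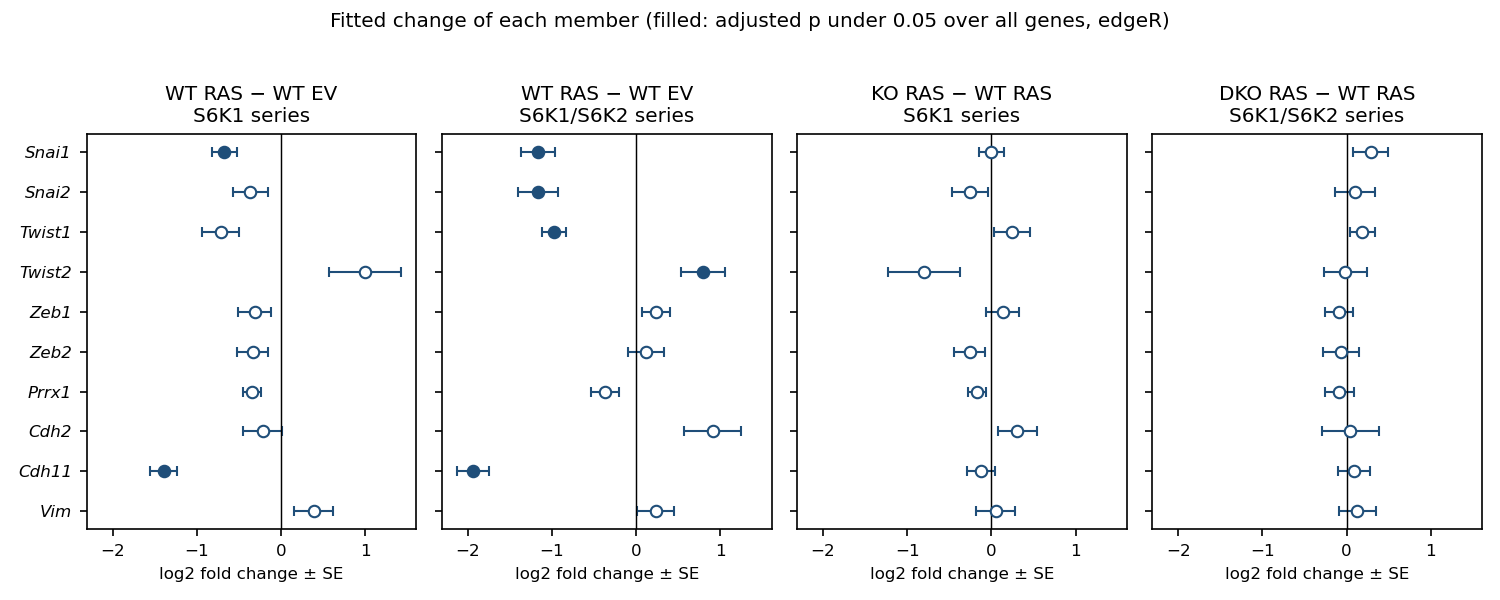
Fitted log2 fold change of each gene with its standard error, for RAS against EV in WT cells and for KO or DKO against WT under RAS, each in its own series. Filled points passed an adjusted p of 0.05 over all genes in edgeR, and these lie in the RAS panels: Snai1 and Cdh11 in the S6K1 series, and Snai1, Snai2, Twist1, Twist2 and Cdh11 in the S6K1/S6K2 series.

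Snai1 (ENSMUSG00000042821, chromosome 2 from 167538195 to 167542814, GRCm38.p6) encodes Snail, a zinc finger repressor of the E-cadherin gene. Its 3 EV libraries in the S6K1 series had 32.9, 36.3 and 44.0 CPM and the RAS libraries of the same lines had 20.3, 25.5 and 25.0 CPM. For the S6K1/S6K2 series EV had 69.2, 55.0 and 63.3 CPM and RAS had 26.9, 26.0 and 30.6 CPM. Every RAS library lay below every EV library of its series. For the S6K1 series the log2 fold change was −0.68 (SE 0.15, adjusted p 0.0179 in edgeR), and it was −1.17 (SE 0.21, adjusted p 0.00367 in edgeR) in the other. Without EV replicate 3 the adjusted p of the S6K1 series was 0.0622 in edgeR, and without RAS replicate 1 it was 0.0661.

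Snai2 (ENSMUSG00000022676, chromosome 16 from 14705852 to 14709395) encodes Slug, the family member of neural crest and limb mesenchyme. It went from 63.3, 71.7 and 78.6 CPM to 43.7, 60.4 and 61.7 CPM with RAS in the S6K1 series. EV and RAS did not overlap there, but the change of −0.36 (SE 0.21) did not pass in edgeR (adjusted p 0.319, and 0.0239 with the block). The S6K1/S6K2 series went from 145, 124.5 and 109.5 CPM to 44.5, 57.2 and 67.3 CPM, a fall of −1.16 (SE 0.23, adjusted p 0.00649 in edgeR). Line 1 had the largest fall, 3.26-fold, and line 3 the smallest, 1.63-fold. The ratio of Snai2 to Snai1 per kilobase stayed between 1.28 and 1.97 in all 18 libraries.

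Twist1 and Twist2 are basic helix-loop-helix factors that pair with E proteins and share most of their DNA-binding domain. Twist1 (ENSMUSG00000035799, chromosome 12 from 33957671 to 33959831) had 85.5, 65.4 and 101.4 CPM in EV and 56.3, 43.1 and 53.9 CPM in RAS of the S6K1 series. Levels in the S6K1/S6K2 series were 177.0, 177.4 and 132.9 CPM for EV and 92.0, 77.5 and 77.7 CPM in RAS. It was lower with RAS in all lines of both series, without overlap. The S6K1/S6K2 series had a fall of −0.98 (SE 0.15, adjusted p 0.00161 in edgeR). The change of −0.72 (SE 0.22) in the S6K1 series had an edgeR adjusted p of 0.0637, or 0.000692 with the block.

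Twist2 (ENSMUSG00000007805, chromosome 1 from 91801461 to 91848034), also called Dermo1, moved the other way. Lines 1, 2 and 3 of the S6K1 series went from 140.2, 114.6 and 55.9 CPM in EV to 257, 266 and 98.8 CPM in RAS, a rise of 1.83-, 2.32- and 1.77-fold. The RAS library of line 3 lay below the EV libraries of the other lines, so the groups overlapped. Without a block the change of 1.00 (SE 0.43) had an adjusted p of 0.175 in edgeR, and with it 0.000325.

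Twist2 in the S6K1/S6K2 series had 38.3, 27.4 and 29.9 CPM in EV and 78.9, 43.9 and 43.2 CPM in RAS, a rise of 0.79 (SE 0.26, adjusted p 0.0488 in edgeR, or 0.00473 with the block). This call did not hold without RAS replicate 1 (0.45, adjusted p 0.148 in edgeR) or without EV replicate 2 (0.70, adjusted p 0.145), and it was also lost in the fits without EV replicate 3, RAS replicate 2 or RAS replicate 3 (adjusted p 0.0920, 0.0588 and 0.0503). The macrophage marker sum was highest in the same 2 lines as Twist2 in the S6K1 series, lines 1 and 2, and in line 1 of the S6K1/S6K2 series, and its part in the Twist2 level was not tested.

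Per kilobase, the balance of the pair therefore moved toward Twist2. The ratio of Twist2 to Twist1 rose within each line, from 1.99, 2.13 and 0.670 in EV to 5.56, 7.50 and 2.23 in RAS of the S6K1 series. The lines of the S6K1/S6K2 series went from 0.263, 0.188 and 0.274 to 1.04, 0.689 and 0.675. Twist1 was thus the more abundant of the pair in all EV libraries of the S6K1/S6K2 series, and Twist2 in 2 of 3 EV libraries of the S6K1 series. The level of Twist2 in WT EV, 103.6 ± 43.2 against 31.9 ± 5.73 CPM, was set side by side between series and not tested.

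Zeb1 and Zeb2 are large zinc finger and homeodomain repressors. Zeb1 (ENSMUSG00000024238) had 133.6 to 190.3 CPM in EV and 107.7 to 156.1 CPM in RAS of the S6K1 series, and 121.6 to 185.0 CPM in EV and 182.2 to 199.4 CPM in RAS of the other. It was lower in all lines of the S6K1 series (−0.31, SE 0.20, adjusted p 0.363 in edgeR, or 0.00761 with the block) and higher in all lines of the S6K1/S6K2 series (0.24, SE 0.17, adjusted p 0.324 in edgeR). The difference between the 2 effects was 0.54 (SE 0.27, adjusted p 0.409 in edgeR) and did not pass.

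Zeb2 (ENSMUSG00000026872, chromosome 2 from 44983512 to 45117442) had 80.4 to 111.6 CPM in EV and 63.4 to 84.1 CPM in RAS of the S6K1 series. The change was −0.34 (SE 0.18, adjusted p 0.284 in edgeR, or 0.00872 with the block). For the S6K1/S6K2 series it was 0.11 (SE 0.21, adjusted p 0.725 in edgeR), with 40.4 to 69.4 CPM in EV and 54.9 to 58.6 CPM in RAS, and it was −0.04 without EV replicate 2. Zeb2 is also a gene of macrophages, and the marker sums given above were not tested as a part of its level. An opposite-strand lincRNA, Gm13476, shares 458 exon bases with Zeb2. It held 7 to 51 counts per library against 457 to 1498 for Zeb2, and the strand setting of the counting is not given in the sources used here.

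Prrx1 (ENSMUSG00000026586, chromosome 1 from 163245119 to 163315145), a homeobox gene of limb and craniofacial mesenchyme, had the smallest spread of the 10 in EV of the S6K1 series. Its libraries went from 597, 627 and 612 CPM in EV to 498, 501 and 447 CPM in RAS. The groups did not overlap, and the change of −0.34 (SE 0.10) had an adjusted p of 0.0608 in edgeR, 0.0189 in DESeq2 and 0.00821 in edgeR with the block. The S6K1/S6K2 series had a change of −0.37 (SE 0.17, adjusted p 0.129 in edgeR), from 785, 994 and 681 CPM to 706, 656 and 540 CPM, lower in every line.

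Cdh11 (ENSMUSG00000031673, chromosome 8 from 102632095 to 102785493) encodes cadherin 11, also called OB-cadherin, which joins fibroblasts and osteoblasts. It had the largest change of the 10 genes in both series. EV libraries of the S6K1 series had 1091, 1224 and 1341 CPM and RAS libraries had 405, 501 and 484 CPM. The S6K1/S6K2 series had 1668, 1617 and 1206 CPM in EV and 418, 329 and 425 CPM in RAS. The fall was 2.69-, 2.44- and 2.77-fold in the lines of the S6K1 series and 3.99-, 4.92- and 2.84-fold in those of the other. The fitted changes were −1.39 (SE 0.16, adjusted p 0.000870 in edgeR) and −1.94 (SE 0.19, adjusted p 0.000228 in edgeR).

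The summed level of the 12 fibroblast markers fell in the same libraries, from 31945 to 38147 CPM in EV to 12038 to 14247 CPM in RAS of the S6K1 series, and from 29411 to 52930 CPM to 10239 to 13669 CPM in the other. The list did not move as 1: RAS lay below EV without overlap for Col1a1, Col1a2, Col3a1, Col6a1, Fbn1 and Pdgfrb in both series and for Postn in the S6K1/S6K2 series, and the groups overlapped for the other 6 and 5 markers, among them Pdgfra, Thy1, Dcn and Lum. The part of this sum in the Cdh11 change was not tested.

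Cdh2 (ENSMUSG00000024304, chromosome 18) encodes N-cadherin, the cadherin that replaces E-cadherin in EMT. It did not follow Cdh11. The S6K1 series had 159, 212 and 190 CPM in EV and 117, 140 and 225 CPM in RAS, lower in lines 1 and 2 and higher in line 3 (−0.22, SE 0.23, adjusted p 0.600 in edgeR). In the other series Cdh2 had 76.8, 127.6 and 179.4 CPM in EV and 201.5, 233.5 and 285.1 CPM in RAS. All 3 lines were higher with RAS, by 2.62-, 1.83- and 1.59-fold, and the groups did not overlap. The change of 0.91 (SE 0.34) had an adjusted p of 0.0734 in edgeR and 0.0286 in DESeq2, and 0.0263 in edgeR without EV replicate 3. The difference between the series was 1.12 (SE 0.44, adjusted p 0.335 in edgeR) and did not pass. The ratio of Cdh11 to Cdh2 per kilobase went from 11.1 to 13.5 in EV to 4.12 to 6.86 in RAS of the S6K1 series, and from 12.9 to 41.5 in EV to 2.69 to 3.96 in RAS of the other.

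Vim (ENSMUSG00000026728, chromosome 2 from 13574311 to 13582826) encodes vimentin, the main intermediate filament of fibroblasts. EV libraries had 4811, 3391 and 3731 CPM and RAS libraries 6249, 4704 and 4645 CPM in the S6K1 series. It was higher with RAS in every line, by 1.30-, 1.39- and 1.24-fold, but the groups overlapped. The change of 0.39 (SE 0.23) had an adjusted p of 0.337 in edgeR, or 0.0209 with the block. In the S6K1/S6K2 series EV had 4872, 4585 and 4135 CPM and RAS had 6433, 4564 and 4937 CPM. The change there was 0.23 (SE 0.22, adjusted p 0.466 in edgeR), with line 2 at 0.995-fold.

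**Figure D3:**
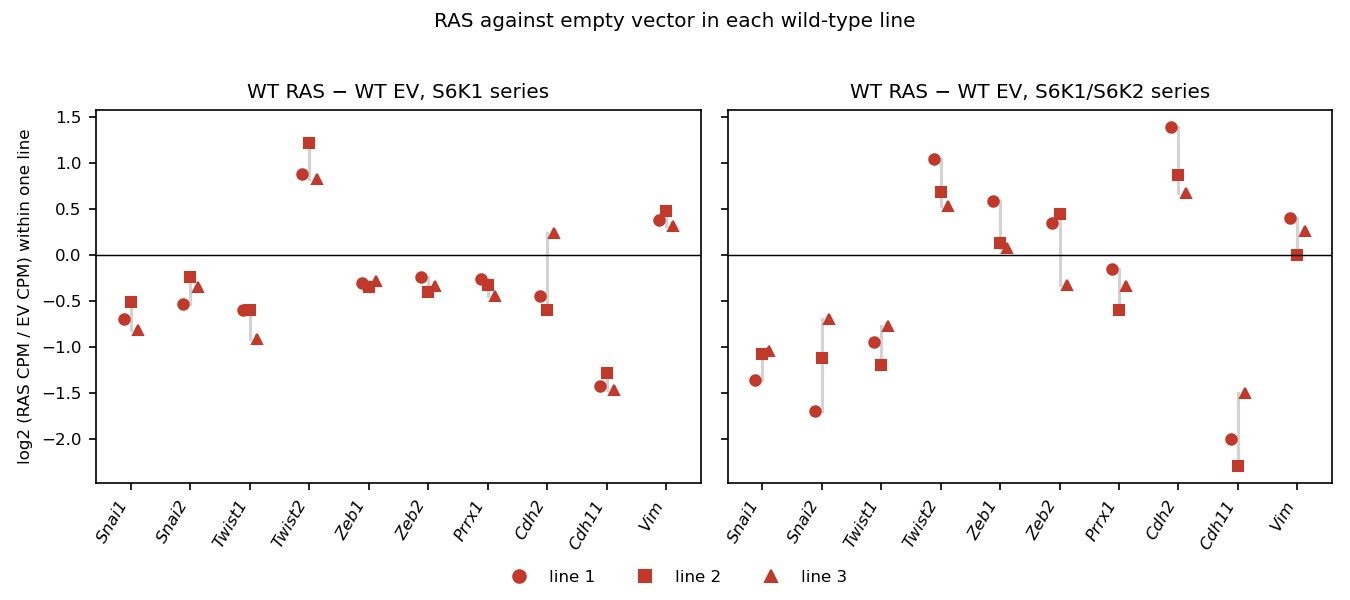
Log2 ratio of the RAS library to the EV library of the same WT line (CPM) for each gene, with 1 symbol per line, in the S6K1 series (left) and the S6K1/S6K2 series (right). In the S6K1 series 7 genes are lower and 2 higher in every line and Cdh2 is mixed. In the S6K1/S6K2 series 5 are lower, 3 higher and 2 (Zeb2 and Vim) mixed. The share of all genes with the same direction in every line is not given here, so these counts do not set the plotted genes apart.

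The RAS effects of the 2 series were compared over all 18 libraries. None of the 10 genes differed past the threshold in edgeR, where 0% of 14483 genes did. DESeq2 called 0 of the 10 as well, and 139 of 16653 over all genes. An unadjusted p under 0.05 was reached by 3 of the 10: Cdh2, Snai2 (difference −0.81, SE 0.33, adjusted p 0.351 in edgeR) and Cdh11 (−0.56, SE 0.24, adjusted p 0.379 in edgeR). Of all genes 12.6% had such a p. A batch that coincides with a series cannot be told apart from it.

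To ask what S6K1 loss changed under RAS, the RAS libraries of KO and WT cells were compared. None of the 10 genes passed in edgeR, where 0.00712% of all genes did. None had an unadjusted p under 0.05 in edgeR, where 6.86% of all genes had one. DESeq2 called 0 of the 10 and 0.650% of all genes. The median log2 fold change was −0.06, against 0.03 over all genes. Snai1, with 22.5, 22.6 and 25.7 CPM in KO RAS, had a change of 0.00072 (SE 0.15). Cdh11 had 351, 418 and 508 CPM in KO RAS and a change of −0.12 (SE 0.16). All 10 genes overlapped between KO RAS and WT RAS, and the share of all genes that did so is not given here.

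Twist2 had the largest difference. KO RAS had 134.6, 142.3 and 80.1 CPM, against 257, 266 and 98.8 CPM in WT RAS. The change was −0.80 (SE 0.43, adjusted p 0.872 in edgeR). WT and KO embryos of this series were littermates and same-numbered libraries deviated together, and with the block the change was −0.72 with an adjusted p of 0.0116 in edgeR. This was the sole gene of the 10 to pass with the block, where 4.15% of all genes passed. The fall was 1.91-, 1.87- and 1.23-fold by number. Macrophage markers were also lower in KO RAS, at 912, 715 and 258 CPM against 3960, 3550 and 771 CPM in WT RAS in the same order of numbers, and their part in the Twist2 difference was not tested.

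Snai2, Zeb2 and Prrx1 were likewise lower in KO RAS than in WT RAS in all 3 pairs, by −0.25 (SE 0.21), −0.26 (SE 0.18) and −0.17 (SE 0.10). Twist1 and Zeb1 were higher in all 3 pairs, by 0.24 (SE 0.22) and 0.13 (SE 0.20). The adjusted p of these 5 was 0.959 or more in edgeR and 0.116 or more with the block. The share of all genes with the same direction in all 3 pairs is not given here. Cdh2 had a change of 0.31 (SE 0.23), with 175, 226 and 194 CPM in KO RAS, and Vim one of 0.05 (SE 0.23), with 4144 to 7125 CPM.

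For the loss of both kinases, DKO RAS was compared with WT RAS. Again 0 of 10 genes passed in edgeR, where 0.0216% of all genes did. None of the 10 had an unadjusted p under 0.05 in edgeR, which 179 of all 13881 genes had. DESeq2 called 0 of the 10, and 10 of 27257 over all genes. Snai1 had the largest change, 0.29 (SE 0.21, adjusted p 1.00 in edgeR), with 23.0, 35.8 and 43.0 CPM in DKO RAS, the last 2 above every WT RAS library. Twist1 had 84.7, 100.8 and 96.3 CPM and a change of 0.19 (SE 0.15). Cdh11 had 413, 350 and 483 CPM and a change of 0.09 (SE 0.19), and Twist2 had 69.6, 45.0 and 49.6 CPM and one of −0.02 (SE 0.26). Cdh2 ranged most, with 353, 233 and 158 CPM in DKO RAS. The median of the 10 was 0.07, against −0.00029 over all genes. The loss effects of the 2 series differed past the threshold for none of the 10 genes in edgeR, where 0.00690% of all genes did. DESeq2 called 0 of the 10 too, and 1 of 30060 over all genes. No gene of the 10 had an unadjusted p under 0.05 in edgeR, which 178 of all 14483 genes had. For Twist2 the difference was 0.83 (SE 0.55, adjusted p 1.00 in edgeR).

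KO and DKO cells with RAS were then set against WT EV of their series, the same EV libraries that served as controls for WT RAS. KO RAS was lower in the S6K1 series for Snai1 (−0.67, SE 0.15, adjusted p 0.0149 in edgeR), Prrx1 (−0.51, SE 0.10, adjusted p 0.00958) and Cdh11 (−1.52, SE 0.16, adjusted p 0.000449). These 3 of 10 compare with 18.1% of all genes passing, 8.56% as lower, and 2 passed without KO RAS replicate 2. With the block 7 of 10 passed, where 41.1% of all genes did, all lower except Vim, which was higher (0.42, adjusted p 0.0129 in edgeR). By DESeq2 5 passed, all lower, where 18.2% of all genes did. In the S6K1/S6K2 series Snai1 (−0.88, SE 0.20, adjusted p 0.0129 in edgeR), Snai2 (−1.07, SE 0.23, adjusted p 0.00958), Twist1 (−0.79, SE 0.15, adjusted p 0.00427) and Cdh11 (−1.85, SE 0.19, adjusted p 0.000271) were lower in DKO RAS. These 4 of 10 compare with 25.7% of all genes, 12.6% as lower, and DESeq2 called 7, where 24.3% of all genes passed. Among these 7, Twist2 and Cdh2 were higher in DKO RAS (adjusted p 0.0242 and 0.0206 in DESeq2), and the others were lower. Lower levels of Snai1 and Cdh11 were thus measured in RAS cells without S6K1 and without both kinases. For Twist2, KO RAS was at 119 ± 33.9 CPM against 103.6 ± 43.2 CPM in EV (0.20, SE 0.43, adjusted p 0.801 in edgeR), and DKO RAS at 54.7 ± 13.0 CPM against 31.9 ± 5.73 CPM (0.78, SE 0.26, adjusted p 0.0528), and whether these 2 changes differ was not tested.

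Lists of related genes were then read from the same fits. Genes that pass the filter on low counts through a single high group had to differ between groups, so counts and medians over tested genes describe those genes only. Other EMT and mesenchymal transcription factors, 21 genes of which 19 and 20 were tested, had 4 lower and 0 higher with RAS in the S6K1 series (median −0.13), with 15 that did not pass. Of all genes tested in that series 13.2% passed, and 6.09% passed as lower. In the S6K1/S6K2 series 10 were lower, 1 was higher and 9 did not pass (median −0.87), where 12.7% of all genes passed as lower and 13.5% as higher. Prrx2, the paralog of Prrx1, fell by 1.90 (SE 0.32, adjusted p 0.00453 in edgeR) and 2.44 (SE 0.42, adjusted p 0.00317) on the log2 scale in the S6K1 and S6K1/S6K2 series. ID proteins inhibit TWIST-type factors by taking up their E protein partners. Id4 went from 98 to 241 counts in EV to 27 to 45 counts in RAS of the S6K1 series (−2.41, SE 0.32, adjusted p 0.00161 in edgeR), while the other series went from 118 to 306 to 16 to 30 counts (−2.84, SE 0.44, adjusted p 0.00197). Id2 had 2327, 533 and 420 counts in EV and 222, 94 and 136 counts in RAS of the S6K1/S6K2 series (−2.59, SE 0.63, adjusted p 0.0148 in edgeR). EV replicate 1 stood far above the others, and this library also had the highest macrophage marker sum of its group, whose part was not tested. The change was −1.40 without it (adjusted p 0.0173 in edgeR), and the call was lost without RAS replicate 2 or 3 (adjusted p 0.0651 and 0.0603). Id2 did not pass in the S6K1 series (−0.64, SE 0.41, adjusted p 0.368 in edgeR, or 0.0101 with the block). Osr1, a factor of mesenchymal and kidney progenitors, fell by 1.53 and 1.48 (adjusted p 0.0284 and 0.00141 in edgeR), the former lost without EV replicate 3, RAS replicate 1 or RAS replicate 2 (adjusted p 0.0914, 0.0982 and 0.110).

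Of 20 other cadherins, 10 were tested in each series. With RAS, 1 was higher and 2 lower in the S6K1 series (median −0.33), and 1 was higher and 4 lower in the S6K1/S6K2 series (median −0.28). Of all genes, 13.2% passed in the S6K1 series and 26.3% in the other, in either direction. Cdh3, the P-cadherin gene, fell by 1.94 (SE 0.24, adjusted p 0.00106 in edgeR) and 1.38 (SE 0.35, adjusted p 0.0174), the latter lost without RAS replicate 1 or 2 (adjusted p 0.0548 and 0.0697). Cdh10 fell by 1.02 and 1.09 (adjusted p 0.0190 and 0.0237 in edgeR). Its calls were lost without EV replicate 1, RAS replicate 1 or RAS replicate 2 of the S6K1 series (adjusted p 0.0622, 0.0732 and 0.0717 in edgeR) and without EV replicate 3, RAS replicate 1 or RAS replicate 2 of the other (0.0641, 0.0513 and 0.0884). Cdh5, the endothelial VE-cadherin gene, rose from 0 to 2 counts per EV library to 17 to 53 counts in RAS of the S6K1 series and from 0 or 1 to 19 to 31 counts in the other (adjusted p 0.00322 and 0.000517 in edgeR). It passed the filter through RAS groups, so a fall of Cdh5 could not have been called. The summed level of the 10 endothelial markers, Cdh5 among them, was 20.3 to 30.0 CPM in EV and 24.8 to 30.4 CPM in RAS of the S6K1 series and 33.4 to 48.5 and 34.6 to 38.5 CPM in the other, and its part was not tested. More than 3 counts in any library were reached by 6 of these markers in WT EV and 9 in WT RAS of the S6K1 series. In the other series 6 and 8 reached it.

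Cdh6 fell in the S6K1/S6K2 series, from 1446, 270 and 312 counts in EV to 92, 99 and 126 counts in RAS (−2.41, SE 0.59, adjusted p 0.0154 in edgeR), and had a change of 0.89 (SE 0.30, adjusted p 0.0893) in the S6K1 series. Without EV replicate 1 the change was −1.20 (adjusted p 0.00868 in edgeR), and the call was lost without RAS replicate 2 or 3 (adjusted p 0.0579 and 0.0527). Cdh9 had 16 counts in each EV library of the S6K1/S6K2 series and 0, 0 and 4 in RAS (adjusted p 0.0198 in edgeR), a call lost without EV replicate 2, RAS replicate 1 or RAS replicate 2 (adjusted p 0.0538, 0.0511 and 0.0737). This gene passed the filter through EV, so a rise with RAS could not have been called. Cdh1, the E-cadherin gene, was too low to be tested in edgeR, at a mean of 0.445 CPM in EV and 0.592 CPM in RAS of the S6K1 series and of 0.0586 and 0.812 CPM in the other, where DESeq2 tested and called it (adjusted p 0.0269).

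Catenins and other partners at the adherens junction numbered 19, with 18 tested. In the S6K1 series 1 was higher and 2 were lower with RAS (median 0.02), and in the S6K1/S6K2 series 8 were higher and 1 was lower (median 0.67). These counts stand beside 13.2% and 26.3% of all genes that passed in the 2 series. Pvr, a nectin-like adhesion receptor, rose by 0.86 (SE 0.22, adjusted p 0.0315 in edgeR) and 1.84 (SE 0.18, adjusted p 0.000205). Ctnna2 (−1.56, adjusted p 0.0456 in edgeR) and vinculin (Vcl, −0.63, adjusted p 0.0471) fell in the S6K1 series. The calls of Ctnna2, Vcl and Pvr in the S6K1 series were each lost in 5 of the 6 fits without 1 library, with adjusted p up to 0.153, 0.175 and 0.112 in edgeR, and held only without RAS replicate 3 for Vcl, EV replicate 3 for Ctnna2 and EV replicate 1 for Pvr. The changes of Ctnna2 and Vcl were −1.15 and 0.36 in the S6K1/S6K2 series, and neither passed. Nectin3 fell (−1.35, adjusted p 0.00193 in edgeR) and the catenin gene Arvcf rose (1.05, adjusted p 0.00535) in the S6K1/S6K2 series, against −0.06 and 0.48 in the S6K1 series, where neither passed.

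Intermediate filament and linker genes beside Vim numbered 13, with 8 tested, of which 3 and 4 were higher with RAS and 0 lower in the 2 series (medians 0.44 and 1.00). The shares of all genes that passed, in either direction, were 13.2% and 26.3%. Nes, the gene for nestin, which assembles with vimentin, rose by 1.60 (SE 0.27, adjusted p 0.00472 in edgeR) and 3.40 (SE 0.54, adjusted p 0.00208), or 4.29 without EV replicate 3 in the latter. The neurofilament gene Nefl rose from 1 to 3 counts in EV to 221 to 582 in RAS of the S6K1 series and from 1 to 7 to 98 to 267 in the other (adjusted p 0.000371 and 0.00116 in edgeR), and Nefm rose by 4.70 and 3.10 (adjusted p 0.00175 and 0.00723 in edgeR), or by 5.33 without EV replicate 3 and 2.51 without RAS replicate 1. Nefl passed the filter through RAS groups, so a fall of it could not have been called. Summed neural and Schwann markers were at 48.9 to 54.8 CPM in EV and 28.7 to 43.2 CPM in RAS of the S6K1 series and at 16.2 to 82.4 and 63.8 to 119.9 CPM in the other. Of these 9 markers, 4 in WT EV and 8 in WT RAS of the S6K1 series exceeded 3 counts in any library, against 7 and 5 in the other. Summed skeletal muscle markers, a list that includes the filament gene Des, were higher with RAS without overlap, at 56.2 to 86.3 CPM in EV and 167.5 to 191.2 CPM in RAS of the S6K1 series and at 6.64 to 40.8 and 88.8 to 248.7 CPM in the other. Of these 10 markers Acta1 and Chrna1 lay above EV in both series and Cdh15 in the S6K1 series, while Myod1 and Myf5 were at 0 counts in every group. The part of these sums in the filament changes was not tested.

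Genes of epithelial cells, the state that EMT factors oppose, numbered 24, of which 10 were tested in each series. With RAS 7 passed as higher in the S6K1 series, where 13.2% of all genes passed in either direction and 6.09% passed as lower. In the S6K1/S6K2 series 9 passed as higher, where 26.3% of all genes passed in either direction and 13.5% as higher. In either series 0 passed as lower. Krt8, Cldn4 and Cldn3, at 0 to 5 counts per EV library, passed the filter through RAS groups, so a fall could not have been called. The median was 3.16 and 3.55, or 3.26 and 3.30 with genes at or near 0 counts in EV set to their bound. The filament gene Krt18 had 131, 75 and 48 counts in EV and 1640, 1827 and 1283 counts in RAS of the S6K1 series (4.32, SE 0.32, adjusted p 0.000127 in edgeR). In the other series it had 4, 14 and 40 counts in EV and 1054, 695 and 815 counts in RAS (5.73, SE 0.56, adjusted p 0.000222 in edgeR, or 6.83 without EV replicate 3). The tight junction gene Cldn4 had 2 to 4 and 0 to 5 counts in EV and 83 to 152 and 146 to 222 counts in RAS. Krt8, the partner of Krt18, had 1 to 3 and 0 to 3 counts in EV and 53 to 98 and 14 to 39 counts in RAS, and Cldn3 had 0 to 2 and 0 or 1 against 11 to 20 and 11 or 12. All 3 passed in both series in edgeR (largest adjusted p 0.00505). Of these 4 genes Krt18 alone exceeded 222 counts in any RAS library of WT cells.

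**Figure D4:**
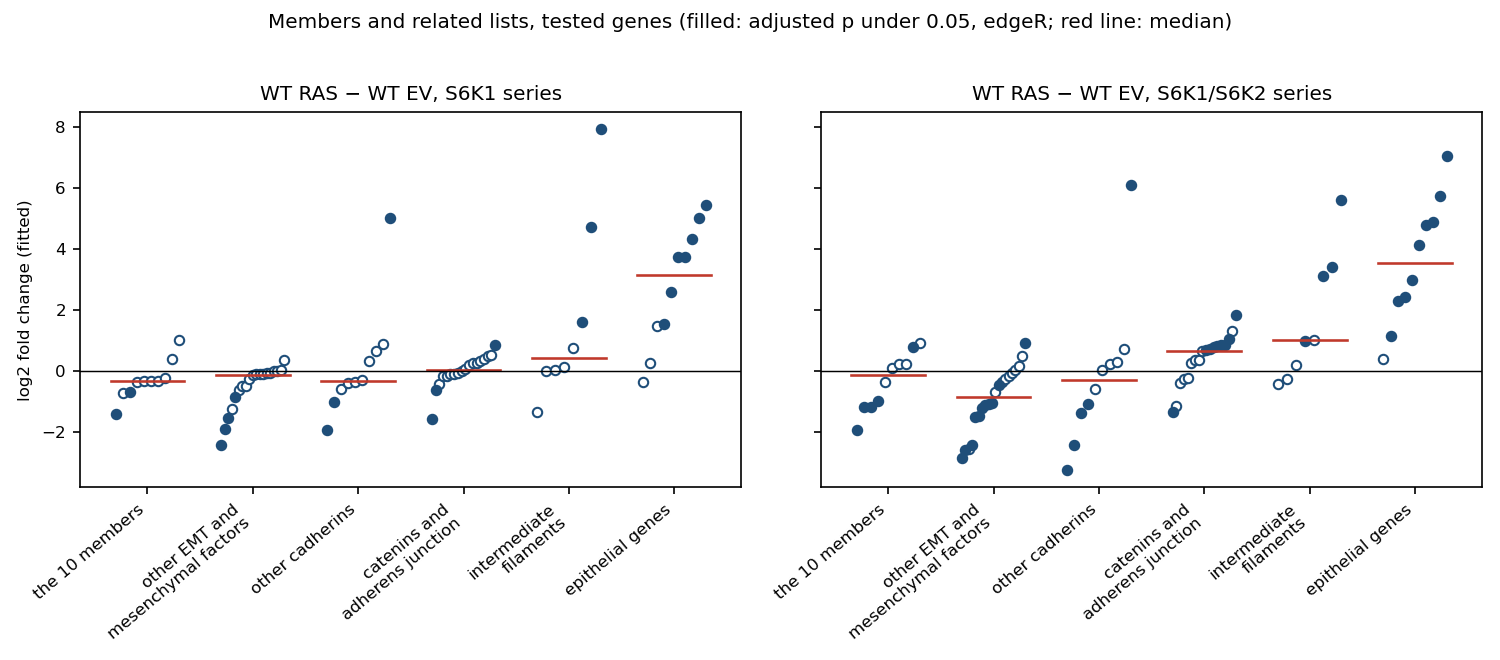
Log2 fold change with RAS in WT cells for every tested gene of the 10 members and of the 5 lists, in each series, with genes past an adjusted p of 0.05 in edgeR filled. Tested epithelial genes have the highest medians, 3.16 and 3.55, and the other transcription factors have medians of −0.13 and −0.87. Of 24 epithelial genes 10 were tested, some of which passed the filter only through RAS groups, so their medians describe those genes only.

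Loss of S6K1 under RAS called 0 of 65 tested genes of the 5 lists in edgeR, where 0.00712% of all genes passed. An unadjusted p under 0.05 was reached by 9 of them, where 6.86% of all genes reached it. DESeq2 called 1 (Cldn4), where 0.650% of all genes passed. The block called 2 (Id2 and Cldn4), a share no higher than the 4.15% of all genes. Cldn4 was higher in KO RAS, at 166 to 312 counts against 83 to 152 in WT RAS. Id2 was lower, at 123 to 206 counts against 177 to 515. The macrophage marker sum was lower in KO RAS too, and its part in the Id2 difference was not tested. Loss of both kinases called 0 of 66 in edgeR, where 0.0216% of all genes passed. None of the 66 had an unadjusted p under 0.05 in edgeR, which 179 of all 13881 genes had, fewer than for S6K1 loss. DESeq2 called 0 of the listed genes, and 10 of 27257 over all genes.

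For the members other than Cdh2, the genes whose log2 CPM followed each most closely over the 18 libraries were then read out of 13549 genes tested in both series. These correlations have no p value, since the libraries share the EV and RAS contrast and the series. Cdh11 was closest to the Notch coactivator gene Maml2 (r = 0.981), Twist2 to the eotaxin gene Ccl11 (0.971), Snai2 to 9030425E11Rik (0.965), Twist1 to the homeobox gene Msx1 (0.952) and Snai1 to Eya1 (0.950). Vim was closest to Ppp1r11 (0.947), Zeb1 to Crocc (0.937), Zeb2 to Atxn7l1 (0.920) and Prrx1 to Rbm39 (0.907). Among the 10 themselves Snai1 and Snai2 were the closest pair (r = 0.93), followed by Twist1 with Prrx1 and with Snai1 (both 0.83). Twist1 and Twist2 were the most opposed (r = −0.80).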

How the data were processed

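The authors deposited 1 table of raw read counts per gene identifier for 18 libraries of stranded poly(A) RNA read as single 50-base ends. The methods name mm9, TopHat, HTSeq and DESeq2, whereas the submitters' processing notes name mm10, STAR 2.7.1a and DESeq2 1.28.1. Of 32589 identifiers shared with the GENCODE annotation of the older build, 20244 carried a later version and 0 an earlier one, so positions are given in GRCm38.p6 from RefSeq, and exon lengths come from the older annotation. The strand setting of the counting is not given in the sources used here. Identifiers with a symbol held 99.1% of counts.

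Each series of 9 libraries was fitted with group alone in edgeR 4.0.16 (R 4.3.3), after filterByExpr with a minimum count of 10 and TMM scaling. Adjusted p values were taken over all genes tested, with a threshold of 0.05. Differences between series used all 18 libraries. P values measure the spread between these samples. DESeq2 1.42.0, other scalings and filters, a replicate block and leaving out each library were alternatives. Fits of the listed genes without each library were chosen after seeing the data. The member genes and lists were chosen with earlier results of these data known, and listed genes were named as the up to 3 largest called changes per list and comparison. The exception is Cdh1, which was named after its values were seen. The gene closest in pattern to Cdh2 is not reported here.

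Same-numbered libraries correlated in all 3 pairs for the RAS comparison in both series, for S6K1 loss (0.393 to 0.692, littermates) and for KO RAS against EV (0.489 to 0.646). In the DKO comparisons the lowest correlations were −0.0351 and −0.118, and these numbers were not taken as pairs. Replicates differed by more than sampling noise (lowest chi-square per degree of freedom 7.98).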

Additional observations from a re-analysis of the deposited data

How the results depend on the processing

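Both losses and both differences between series called 0 of the 10 genes under every alternative run, except S6K1 loss with the replicate block, which called 1 (Twist2). For RAS in the S6K1 series the count of 2 became 4 in DESeq2, 9 with the replicate block and 1 to 3 without single libraries. In those single-library fits 1043 of 14233 to 1818 of 14243 genes passed. For RAS in the S6K1/S6K2 series the count of 5 became 4 to 5 without single libraries, where 2050 of 14211 to 4199 of 14205 genes passed. DESeq2 added Cdh2 there, higher with RAS (adjusted p 0.0286), where 4139 of 15622 genes passed. For KO RAS against EV the count of 3 became 5 in DESeq2, 7 with the replicate block and 2 to 4 without single libraries. For DKO RAS against EV the count of 4 became 7 in DESeq2 and 4 to 6 without single libraries. Over all genes 1325 of 14278 to 2139 of 14316 passed for KO RAS and 1999 of 14240 to 4044 of 14205 for DKO RAS without single libraries. The DKO comparisons share only a number between groups, and there the replicate block called 0 members (8 of all genes) for the loss and 5 members (3931 of all genes) against EV. The RAS and loss comparisons lost 10 single-gene calls, a tally that leaves out KO RAS and DKO RAS against EV. Of these, 2 were Snai1 with RAS in the S6K1 series and 8 were Twist2 with RAS in the S6K1/S6K2 series. For this Twist2 change, upper-quartile scaling gave an adjusted p of 0.0572 in edgeR, the 6 compared libraries 0.0649 and all 18 libraries 0.139. Changes of sign touched only changes that had not passed. Snai1 under S6K1 loss was −0.0080 in DESeq2, −0.0070 with DESeq2 size factors, −0.023 with upper-quartile scaling, −0.0076 with at least 10 counts in every library, −0.021 in the 6 compared libraries and −0.023 in all 18. Twist2 under DKO loss was 0.0037 with no filter and 0.012 with the replicate block. Without single libraries, S6K1 loss ranged from −0.095 to 0.051 for Snai1 and from −0.21 to 0.21 for Vim, and the RAS effect on Zeb2 in the S6K1/S6K2 series from −0.037 to 0.39. DKO loss ranged from −0.075 to 0.32 for Snai2, −0.22 to 0.33 for Twist2, −0.26 to 0.041 for Zeb2, −0.19 to 8.4e-05 for Prrx1, −0.30 to 0.29 for Cdh2, −0.031 to 0.19 for Cdh11 and −0.064 to 0.29 for Vim. The causes were not tested. Depth was no limit for the members, each with at least 218 counts per library, but it limited Cdh1, Cdh5, Cdh9, Nefl and the epithelial genes.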
